A study of Mus musculus with 24 samples.

Results

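Livers of streptozotocin-diabetic mice fed 0.5% quercetin were compared with livers of untreated control mice, 6 against 6, which is 12 of the 24 arrays of the series. Mice were placed in the groups by the sample titles alone. All mice were male BALB/c, 6 weeks old on arrival, and ate the purified AIN93G diet in the last 14 days. The 0.5% group had received 1 intraperitoneal injection of 185 mg/kg streptozotocin (STZ), had been picked a week later for a non-fasting blood glucose of 230 to 400 mg/dL, and then ate the diet with 0.5% quercetin. Controls got the same diet with neither STZ nor quercetin. The labels mention no vehicle injection in controls, so the injection, STZ and quercetin all differ between the groups and cannot be told apart here. A group given STZ and the plain diet is used below where the 0.5% group is set against STZ alone. Cages held 3 mice, and the labels tie no mouse to a cage and give no glucose value for a mouse. The numbers 1 to 6 below are those of the sample titles.

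STZ is a glucose analogue with an alkylating group. It enters insulin-producing beta cells through a glucose transporter that hepatocytes also carry, so STZ mice combine loss of insulin with exposure of the liver to a DNA-damaging agent. Cells answer DNA damage through the transcription factor p53, which raises genes such as Cdkn1a, an inhibitor of cyclin-dependent kinases, and Mdm2, the ligase that degrades p53. Quercetin is a plant flavonol that is studied as an antioxidant and as a ligand of xenobiotic receptors. Which liver genes still differ from untreated mice when a diabetic mouse eats quercetin is the question this comparison answers.

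Levels are log2(intensity + 16) after quantile normalization, so 1 unit is at least a doubling of intensity, and more for dim genes. The mean deposited intensity of the 12 arrays ran from 61 to 102, with 75, 86.1, 80.8, 79.5, 66.8 and 61 in 0.5% mice 1 to 6. The 9 hepatocyte markers tested were abundant, the lowest at the 96.4th percentile of the genes. The Gapdh 3′ minus 5′ probe difference, a measure of RNA integrity and labelling, was -0.14, -0.40, -0.32, -0.35, -0.06 and 0.01 in mice 1 to 6. Its mean was -0.21 ± 0.17 (SD, n = 6) against -0.04 ± 0.17 in controls, a difference of -0.17 (two-sided exact permutation test over 924 arrangements, p = 0.108, adjusted p = 0.38 over 4 array measures, smallest possible p 0.00216). Mice 2, 3 and 4 lay below all controls, and mice 1, 5 and 6 lay within their range. Many of the results below set mice 2, 3 and 4 apart from the controls too, but mouse 1 with them. The part of this measure in the results was not tested beyond the fit with it as a term.

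The 6 mice of the 0.5% group did not form 1 cluster. Each was placed on a line that starts at the mean of the controls (0%) and ends at that of the plain-diet STZ group (100%), over the 488 genes (3.72% of those tested) that passed between these 2 groups. Mice 1 to 4 lay at 81%, 94.3%, 83.3% and 97.5%. Mice 5 and 6 lay at 2.35% and -3.16%, at the control mean. The 6 mice fed 0.1% quercetin lay between 74.3% and 114%. On the first principal component, which carried 22.4% of the variance, mice 5 and 6 lay at -17.2 and -19.2 and the controls between -18.3 and -13.5, while the other 4 lay between 3.17 and 9.5. Over all 13114 genes the shares were closer: 34.7% and 37.1% of genes lay outside the range of the 6 controls, on either side, in mice 5 and 6, against 35.4% to 39.1% in mice 1 to 4. A further control mouse would also have genes outside that range, and their share was not computed. Of the 488 STZ genes, however, 26.4% and 20.9% lay outside that range on the STZ side in mice 5 and 6, against 76.2% to 86.1% in mice 1 to 4. The labels give these 2 mice the same STZ dose and diet as the rest. Levels are therefore given for every mouse where a gene is described in full, and the counts, the main gene lists and the genes whose call it changes are also given without mice 5 and 6, a choice made after their values were seen. A fit without them shows what the remaining 4 arrays hold and is no independent test. Because mice 5 and 6 lay at the control mean over the STZ genes, leaving them out enlarges such differences and lowers their p-values by selection. The adjusted p-values of that fit are descriptive only.

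**Figure D1:**
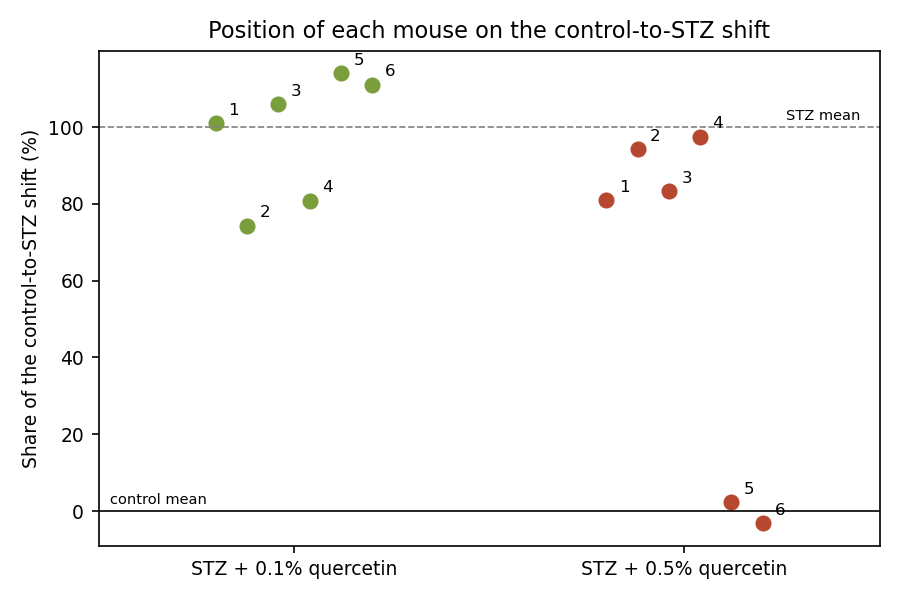
Share of the difference between control (0%) and STZ (100%) seen in each quercetin-fed mouse (y axis), over the 488 genes called between those groups. Each gene is weighted by the square of its difference between STZ and control, so genes with large differences count most. Points are mice, with the number of the sample title beside each. Mice 1 to 4 of the 0.5% group lie between 81% and 97.5%, and mice 5 and 6 at 2.35% and -3.16%.

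Over all 6 mice, 7 genes were higher (0.0534% of the 13114 tested) and 10 were lower (0.0763%) than in controls at a limma adjusted p under 0.05, 17 in all (0.13%). Of these, 2 rose and 1 fell at least 2-fold. The median difference over all genes was -0.01, 45.9% of genes were higher in the 0.5% group, and 1613 had an unadjusted p under 0.05. These calls come from the joint fit over 4 groups. With the 12 arrays alone, or with the Gapdh difference as a term, 0 genes passed in limma (smallest adjusted p 0.091 and 0.0553, with 1468 and 1278 unadjusted p under 0.05). Scaling each array to 1 median in place of quantiles gave 37 higher and 649 lower, with 16 of the 17 genes among them and a median difference over all genes of -0.09, so the split between directions depends on the scaling. Leaving out mouse 5 gave 75 higher and 62 lower, and leaving out mouse 6 gave 88 and 62. Leaving out both gave 234 higher (1.78%) and 199 lower (1.52%), all 17 genes included. Leaving out mouse 4 left 0 higher and 1 lower, mouse 3 1 and 1, mouse 2 1 and 3, and mouse 1 4 and 8. Leaving out control 1, 2, 3 or 4 left 0 or 1 higher and 2 to 4 lower.

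**Figure D2:**
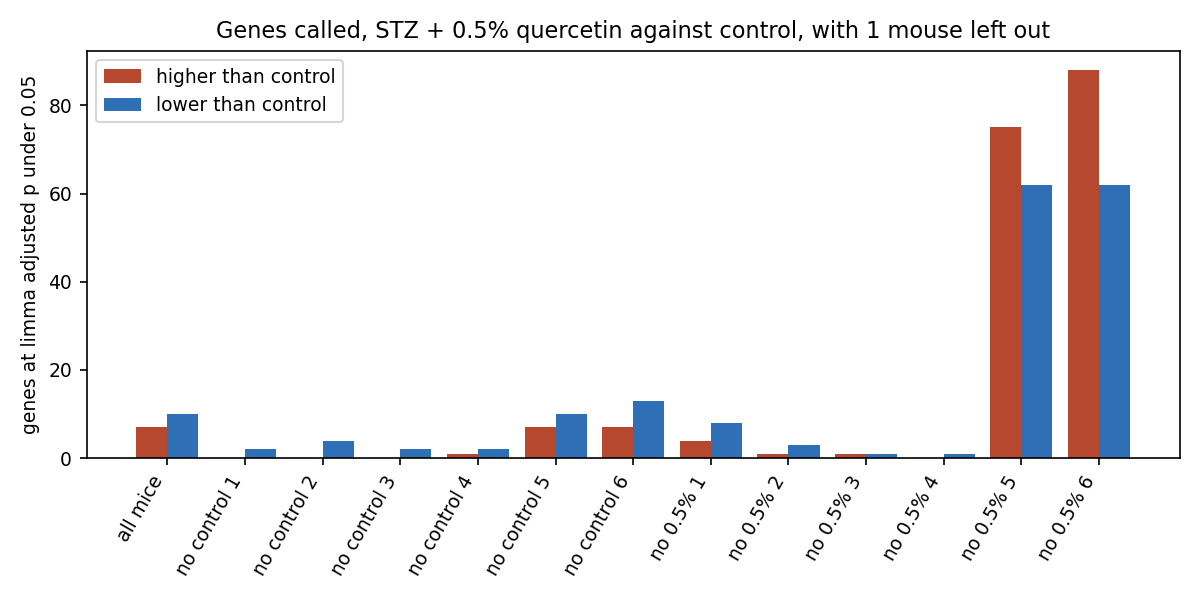
Number of genes past a limma adjusted p of 0.05 between the 0.5% group and control (y axis), with all 12 mice and with 1 mouse left out (x axis); red bars are genes higher and blue bars genes lower in the 0.5% group. The bars without mouse 5 or mouse 6 reach 75 and 88 genes higher, and those with any other mouse left out stay at 13 genes or fewer.

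The 17 genes divided by whether mice 5 and 6 shared the difference. In 9 of them every 0.5% mouse lay outside the range of the controls. These were Aebp2 and Ifi27l2b above it, and Efna1, Arf5, Vamp5, Pcbp4, Ccdc47, Mrpl12 and Nat9 below it. Over all genes tested, 33 (0.252%) had all 6 mice above all controls and 60 (0.458%) all 6 below, so such genes are few but not confined to those called. In the other 8 genes at least 1 mouse, and in 7 of the 8 mouse 5 or mouse 6, lay within the control range; the eighth, Trp73, had mouse 3 there.

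Mrpl12, a protein of the large subunit of the mitochondrial ribosome, was 9.62, 9.75 and 9.96 at the lowest, median and highest control. It was 9.18, 9.28, 9.15, 9.23, 9.26 and 9.43 in 0.5% mice 1 to 6. All 6 mice lay below every control, with a difference of -0.51 ± 0.09 (SE; limma adjusted p = 0.0221). Ccdc47, an endoplasmic reticulum membrane protein that helps insert membrane proteins, was 8.33, 8.49 and 8.64 in controls and 7.72, 8.04, 7.97, 8.02, 8.15 and 7.87 in mice 1 to 6. Again no mouse reached the control range (difference -0.53 ± 0.09, adjusted p = 0.0221), but 3 dimmer probe sets of Ccdc47 showed -0.06, 0.07 and 0.17, so the fall belongs to 1 probe set. Nat9, a member of the N-acetyltransferase family, was 6.45, 6.66 and 6.82 in controls and 6.31, 6.05, 6.18, 6.16, 6.32 and 6.45 in the 0.5% mice (difference -0.41 ± 0.08, adjusted p = 0.0397). Its mouse 6 and lowest control round to the same value, so the gap there is negligible.

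The other 4 genes low in all 6 mice have diverse roles. Efna1, a ligand of Eph receptors, fell by 0.80 ± 0.16 (adjusted p = 0.0429), and its mice lay between 6.19 and 6.70 against 6.71 to 7.73 in controls. The controls themselves divided, at 7.51, 7.73 and 7.48 in controls 1 to 3 and 6.71, 6.85 and 6.85 in controls 4 to 6. The Efna1 difference was -1.30 within numbers 1 to 3 and -0.29 within numbers 4 to 6. Its mouse 6, at 6.70, lay below the lowest control, at 6.71, by a negligible gap. Arf5, a small GTPase of the Golgi, fell by 0.61 ± 0.12 (adjusted p = 0.0429), with mice at 6.81 to 7.42 against 7.53 to 7.95. Vamp5, a vesicle SNARE protein, fell by 0.54 ± 0.11 (adjusted p = 0.0397), with mice at 6.09 to 6.32 against 6.43 to 6.93. In none of these 3 genes did a 0.5% mouse reach the lowest control. Pcbp4, a poly(rC)-binding protein, fell by 0.54 ± 0.11 (adjusted p = 0.0498), with mouse 2 at 6.43 and the other 5 at 6.05 to 6.19 against 6.60 to 6.77 in controls. Other probe sets of Efna1 (-0.49) and Pcbp4 (-0.27 and -0.20) pointed the same way.

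On the high side, Aebp2, an accessory protein of the Polycomb complex that methylates histone H3, was 6.33, 6.44 and 6.52 at the lowest, median and highest control. The 0.5% mice lay at 6.88, 6.78, 6.80, 6.83, 6.75 and 6.61, all above controls (difference 0.34 ± 0.07, adjusted p = 0.0429). Its other probe sets differed by 0.26, 0.37 and -0.03. Ifi27l2b, a small interferon-inducible membrane protein, was 4.30, 4.62 and 4.78 in controls and 5.06, 5.13, 5.20, 5.21, 4.90 and 5.36 in mice 1 to 6 (difference 0.58 ± 0.12, adjusted p = 0.0442). Ifi27l2b was dim in controls, the lowest of which lay under the filter level of 4.31. Mouse 6, at the control mean over the STZ genes, had the highest Ifi27l2b level of the group. Its probe set is of a kind that can bind transcripts of related genes, and Ifi27l2a is one such relative. Trp73, a p53 family member, was dim: 4.14, 4.24 and 4.60 in controls against a filter level of 4.31, and 4.80, 4.98, 4.54, 4.88, 4.84 and 4.95 in the 0.5% mice (difference 0.53 ± 0.10, adjusted p = 0.0397). Mouse 3 lay within the control range.

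The larger differences rested on mice 1 to 4. Cplane1, which takes part in building cilia, was 4.25, 4.48 and 4.67 at the lowest, median and highest control. Mice 1 to 6 had 8.44, 8.73, 9.49, 9.34, 4.32 and 4.86. The mean rose by 3.08 ± 0.62, or 8.43-fold on this scale (adjusted p = 0.0429), while mouse 5 lay within the control range and mouse 6 just above it. Without these 2 mice the difference was 4.54. Its 5 other probe sets differed in size and sign, at -0.08, 0.02, 0.84, 1.28 and 1.70. Mbl2, mannose-binding lectin, a secreted protein that starts complement activation on microbial sugars, was 10.48, 10.65 and 10.80 in controls and 11.78, 11.92, 11.99, 11.85, 10.69 and 10.74 in the 0.5% mice. Mice 1 to 4 lay close together above every control, and mice 5 and 6 lay inside the control range (difference 0.85 ± 0.17, 1.8-fold, adjusted p = 0.0397). Sulf2, which trims sulfate from heparan sulfate outside the cell, had 7.37, 7.83, 7.99, 7.78, 6.93 and 7.18 in mice 1 to 6 against 6.34 to 7.08 in controls (difference 0.81 ± 0.17, adjusted p = 0.0498), with 0.81 and 0.01 at 2 other probe sets.

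Of the genes that fell mainly in mice 1 to 4, Tcf24, a basic helix-loop-helix factor, had the smallest adjusted p of the comparison. It was 5.85, 6.11 and 6.26 in controls and 4.77, 4.84, 4.68, 4.39, 6.02 and 5.36 in mice 1 to 6, a fall by 1.08 ± 0.17 (2.12-fold, adjusted p = 0.00734). Mouse 5 lay within the controls and mouse 6 between them and the other 4. Rnase2a, an eosinophil-type ribonuclease, fell by 0.97 ± 0.20 (adjusted p = 0.0444), with 4.30, 4.51, 4.33, 4.73, 5.30 and 5.91 against 5.82 ± 0.37 (SD, n = 6) in controls. Here mouse 6 lay within the controls and mouse 5 just below them. Tspan33, a tetraspanin of the cell surface, fell by 0.67 ± 0.13 (adjusted p = 0.0397), and its mice lay at 5.56, 5.66, 5.75, 5.42, 5.89 and 6.33 against 6.08 to 6.67 in controls; 3 other probe sets showed -0.24, -0.28 and -0.67.

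**Figure D3:**
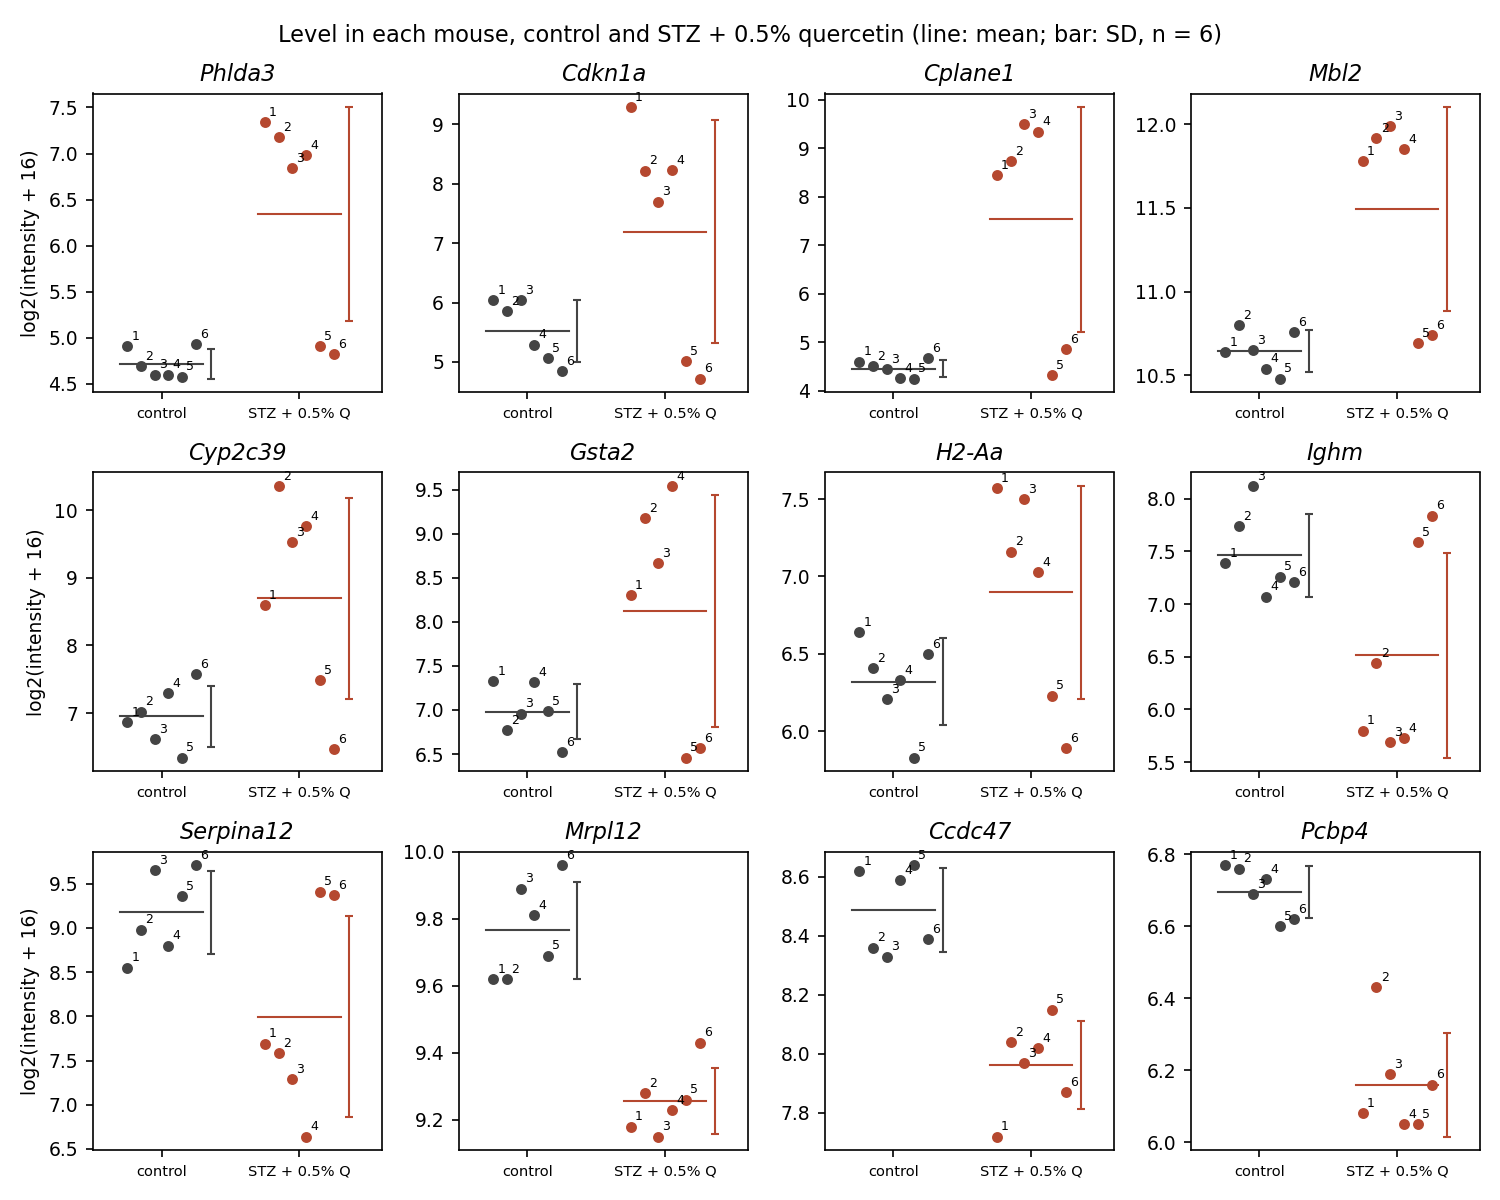
Level, as log2(intensity + 16), of 12 named genes in each control mouse (grey) and each 0.5% mouse (red), numbered as in the sample titles; lines are means and bars SD, n = 6. In Phlda3, Cplane1 and Mbl2 mice 5 and 6 sit beside the controls, and in Mrpl12, Ccdc47 and Pcbp4 all 6 mice sit below every control.

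Targets of p53 showed how uneven the group was. Of 29 list members tested, 1 rose (Phlda3) and 0 fell; 21 (72.4%) were higher and the median difference was 0.34, against 45.9% and -0.01 over all genes. The list median per mouse was 0.45, 0.48, 0.45, 0.66, -0.07 and -0.05 in mice 1 to 6, with controls between -0.04 and 0.07. Without mice 5 and 6, 15 members rose and 1 fell with a median of 0.52, in a fit that called 1.78% of all genes higher and 1.52% lower. Part of this list, and of lists below, belongs to the 488 STZ genes. STZ against control called 14 of the 29 p53 targets higher and 1 lower. It called 5 of 8 MHC class II, 8 of 15 female-biased and 8 of 23 CAR and PXR genes higher, and 8 of 18 male-biased genes lower. For these members the split of the mice repeats that of the 488 genes and is no separate result. Phlda3, a p53 target that restrains the kinase Akt, was 4.58, 4.64 and 4.93 in controls and 7.34, 7.18, 6.84, 6.98, 4.91 and 4.82 in mice 1 to 6. Mice 1 to 4 lay far above every control and mice 5 and 6 within them, which gave a group difference of 1.63 ± 0.31 (3.09-fold, adjusted p = 0.0397).

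Cdkn1a, the cell-cycle inhibitor p21, had a mean difference of the same size, 1.67 ± 0.50, but did not pass (adjusted p = 0.153). It was 4.85, 5.57 and 6.04 at the lowest, median and highest control, and 9.29, 8.22, 7.70, 8.23, 5.01 and 4.72 in mice 1 to 6, so that the group SD was 1.88 against 0.52 in controls. Mouse 6 lay below all controls. Without mice 5 and 6 its difference was 2.84 (adjusted p = 4.62e-08). The stretch of the Cdkn1a promoter that holds the one match to the p53 consensus found among the promoters of this list is shown because Cdkn1a is the reference target of the pathway; it lies at chr17:29090881-29090962 on the plus strand, 98 to 17 bases before 1 of its 2 annotated starts, and capitals mark the match, with the spacer between its 2 parts.
Cdkn1a: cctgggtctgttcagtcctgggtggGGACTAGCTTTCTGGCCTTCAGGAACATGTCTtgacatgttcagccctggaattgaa
The consensus was searched on both strands as a pair of decamers at most 13 bases apart, in windows from 250 bases before to 50 after each RefSeq start (GRCm38.p6). It was in 1 of 30 promoters of the list (22 of its 29 genes matched) and in 24 of all 32851 promoters (0.0731%).

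Other p53 targets also divided mice 1 to 4 from mice 5 and 6, and none of those below passed over 6 mice; they were picked after their values were seen unless stated. Trp53inp1, a stress protein that feeds back on p53, was 9.30, 9.09, 9.34, 8.98, 7.71 and 7.71 in mice 1 to 6 against 7.57 to 7.95 in controls (difference 0.91, adjusted p = 0.0878). Ccng1, cyclin G1, was 8.56, 8.68, 8.59, 8.45, 7.17 and 6.64 against 7.01 to 7.31 (0.82, adjusted p = 0.141). Aen, a nuclease of apoptosis, was 7.44, 6.90, 6.81, 7.21, 6.01 and 6.15 against 5.68 to 6.32 (0.82, adjusted p = 0.0536). In these 3 genes mice 1 to 4 lay above every control and mouse 5 within them. Mdm2, from the rule for named genes, had 6.62, 6.41, 6.51, 6.31, 5.46 and 5.95 against 5.57 to 5.93 (0.45 ± 0.16, adjusted p = 0.232; without mice 5 and 6, 0.70 and 0.00296). Perp, a p53 target of cell junctions, ran the other way at 7.76, 8.22, 8.27, 7.97, 8.39 and 8.40 against 8.36 to 8.85 (-0.43, adjusted p = 0.0761), again with mice 1 to 4 outside the controls. In the fit without mice 5 and 6, which is no independent test, Trp53inp1 was 1.40 higher than control (adjusted p = 1.94e-06). Ccng1 was 1.38 higher (1.22e-09) and Aen 1.16 (2.52e-05), and Perp differed by -0.55 (0.00461).

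Interferon-response genes, which act against viruses inside the cell, divided the mice in the same way. Of 28 tested, 1 rose (Ifi27l2b) and 0 fell, 26 (92.9%) were higher, against 45.9% of all genes, and the median difference was 0.34. Per mouse the list median was 0.59, 0.48, 0.50, 0.54, -0.17 and -0.06, with controls between -0.13 and 0.08. In the fit without mice 5 and 6, 17 members rose and 0 fell, where 1.78% and 1.52% of all genes did. STZ against control called 16 of the 28 higher and 0 lower, so for these members the split again repeats that of the 488 STZ genes. Usp18, which removes the ubiquitin-like ISG15 and damps interferon signalling, had the largest difference of the list, 1.02 (adjusted p = 0.0761). Its levels were 7.64, 7.30, 7.54, 7.61, 5.94 and 5.94 in mice 1 to 6 against 5.72 to 6.35 in controls, and its difference without mice 5 and 6 was 1.55 (adjusted p = 1.56e-06). Ifi27l2b, the member that passed, differed from the list median in that mice 5 and 6 lay above the controls too.

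Interferon-stimulated genes are read through a promoter element bound by interferon regulatory factors, whose core is 2 copies of GAAA. The motif GAAANNGAAA, on either strand, was in 13 of the 24 promoters of the list (54.2%; 20 of its 28 genes matched) and in 1131 of all 32851 promoters (3.44%). Shown are the members with the largest differences among those with a match wholly before the start, so that their matches can be compared. Promoters on a single chromosome were left out of this choice. The sequences run 5′ to 3′ on the strand of the gene from RefSeq GRCm38.p6. Capitals mark each match or run of overlapping matches, and TTTC repeats are matches on the other strand. Ifit1, which binds foreign RNA, lies at chr19:34640760-34640838 (plus strand), Igtp, a GTPase that acts on the vacuoles of pathogens, at chr11:58199497-58199555 (plus), Oas1a, an oligoadenylate synthetase, at chr5:120907526-120907570 (minus), and Gbp3, a guanylate-binding protein, at chr3:142559974-142560039 (plus).
Ifit1: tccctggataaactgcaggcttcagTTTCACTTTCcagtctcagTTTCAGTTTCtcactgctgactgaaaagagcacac
Igtp: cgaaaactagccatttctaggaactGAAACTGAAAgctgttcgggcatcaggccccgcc
Oas1a: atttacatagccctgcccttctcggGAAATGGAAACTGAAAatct
Gbp3: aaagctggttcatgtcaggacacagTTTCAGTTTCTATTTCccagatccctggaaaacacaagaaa
A match is a description of the letters and no evidence of binding in these mice.

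The levels of these 4 genes followed mice and not group. Ifit1 was 7.17, 6.87, 7.42, 7.40, 5.96 and 6.17 in mice 1 to 6 against 6.06 to 6.32 in controls (difference 0.62, adjusted p = 0.184). Igtp was 8.35, 7.90, 8.46, 8.27, 7.54 and 7.46 against 7.06 to 7.53 (0.62, adjusted p = 0.0761). Oas1a was 7.33, 7.14, 7.32, 7.35, 5.84 and 6.26 against 6.02 to 6.35 (0.62, adjusted p = 0.205). Mice 1 to 4 lay above every control in all 3 genes, and mouse 5 lay below every control in Ifit1 and Oas1a. Gbp3 was 6.01, 5.78, 5.99, 5.82, 5.13 and 4.97 against 4.84 to 5.13 (0.59, adjusted p = 0.153), with mice 5 and 6 at the control level. The 4 differences without mice 5 and 6 lay between 0.86 for Igtp and 1.03 for Oas1a, with adjusted p between 8.6e-05 for Oas1a and 0.00129 for Gbp3.

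Genes of antigen presentation by MHC class II, normally made by macrophages, dendritic cells and B cells, had a median difference of 0.49 over 8 genes tested, 7 of them higher and 0 past the test (5 rose and 0 fell without mice 5 and 6). Of all genes 45.9% were higher, and the fit without mice 5 and 6 called 1.78% of them higher and 1.52% lower. H2-Aa, the class II alpha chain, was 7.57, 7.16, 7.50, 7.03, 6.23 and 5.89 in mice 1 to 6 against 5.83 to 6.64 in controls (difference 0.58 ± 0.21, adjusted p = 0.25; without mice 5 and 6, 0.99 and 0.000222). Macrophage and Kupffer cell markers had a median of 0.18 over 14 genes, 13 of them higher and 0 past the test, with 0.24, 0.40, 0.33, 0.36, -0.16 and -0.16 per mouse. Their summed level ran from 10.50 to 10.86 in controls and from 10.51 to 11.19 in the 0.5% mice, and 14 of the 15 genes of the list were tested (6 rose and 0 fell without mice 5 and 6). B and plasma cell markers ran the other way, with 0 of 5 higher and a median of -0.25. Ighm, the heavy chain of IgM, was 5.80, 6.44, 5.69, 5.73, 7.59 and 7.84 against 7.07 to 8.12 (-0.95 ± 0.30, adjusted p = 0.187), so that mice 1 to 4 lay below every control. Ighm differed by -1.55 without mice 5 and 6 (adjusted p = 0.000111), and 3 of the 5 B cell markers fell and 0 rose. The part of these cell markers in the interferon and class II values was not tested, and in whole liver fewer cells of a type and less RNA per cell cannot be told apart.

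Drug-metabolizing genes under the receptors CAR and PXR were mostly higher without any passing: 19 of 23 (82.6%) were higher, with a median of 0.19. Without mice 5 and 6, 6 rose and 0 fell, in a fit that called 1.78% of all genes higher and 1.52% lower. With all 6 mice, 45.9% of all genes were higher. Cyp2c39, a cytochrome P450 that oxidizes retinoic acid, was 8.60, 10.36, 9.53, 9.77, 7.49 and 6.46 in mice 1 to 6 against 6.34 to 7.58 in controls (difference 1.75 ± 0.47, adjusted p = 0.12). Cyp2b9, a P450 of female liver, was 6.81, 9.11, 7.02, 7.93, 4.98 and 5.26 against 4.93 to 6.01 (1.37 ± 0.48, adjusted p = 0.232). Gsta2, a glutathione transferase, was 8.30, 9.18, 8.67, 9.54, 6.46 and 6.57 against 6.52 to 7.33 (1.14 ± 0.42, adjusted p = 0.249). Mouse 2 or mouse 4 was the highest in each of the 3 genes, so mice 1 to 4 also differed among themselves here. Over mice 1 to 4 the differences from control were 2.61 for Cyp2c39 (adjusted p = 8.75e-05), 2.24 for Cyp2b9 (0.00132) and 1.94 for Gsta2 (0.000548). Of 19 NRF2 targets, which make up the antioxidant response, 18 (94.7%) were higher, with a median of 0.10 and 0 past the test (2 rose and 0 fell without mice 5 and 6). The NRF2 list median per mouse was 0.22, 0.39, 0.14, 0.16, -0.11 and -0.05, with controls between -0.08 and 0.06. Of 19 glutathione transferases, 14 (73.7%) were higher, with a median of 0.06 and 0 past the test (3 rose and 1 fell without these mice). The antioxidant genes Nqo1 (0.12 ± 0.15, adjusted p = 0.785) and Hmox1 (0.00 ± 0.14, adjusted p = 0.995) differed by little in the mean and did not pass. Nor did Cyp1a1, the index target of the aryl hydrocarbon receptor (-0.00 ± 0.09, adjusted p = 0.995). The small Nqo1 mean hid a split, with 4.97, 5.55, 5.16, 5.26, 4.77 and 4.69 in mice 1 to 6 against 4.82 to 5.03 in controls. Hmox1 was 5.93, 5.51, 5.29, 5.55, 4.93 and 5.18 against 5.20 to 5.71. In both genes mice 5 and 6 lay below every control.

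Sex-dependent liver genes, set by the pulse pattern of growth hormone, had opposite signs by list. Female-biased genes had a median of 0.37 (13 of 15 higher, 0 past the test), with 0.27, 0.64, 0.46, 0.59, 0.20 and -0.08 in mice 1 to 6, and male-biased genes a median of -0.22 (3 of 18 higher, 0 past the test). In mice 1 to 4 alone, 6 female-biased genes rose and 0 fell, and 0 male-biased genes passed. That fit called 1.78% of all genes higher and 1.52% lower, and with all 6 mice 45.9% of all genes were higher. Hsd3b5, a steroid dehydrogenase of male liver, was 11.26, 11.37 and 11.55 at the lowest, median and highest control and 10.48, 9.31, 10.12, 9.51, 11.42 and 11.50 in mice 1 to 6, with a mean of 10.39 ± 0.93 (SD, n = 6) against 11.38 ± 0.13 (limma adjusted p = 0.439). Serpina12, the insulin-sensitizing protein vaspin, is in neither sex-biased list and was named by rule. Its levels were 7.69, 7.58, 7.29, 6.64, 9.41 and 9.37 against 8.55 to 9.71 (-1.18 ± 0.52, adjusted p = 0.348, and without mice 5 and 6, -1.88 and 0.0435). In both genes mice 1 to 4 lay below every control and mice 5 and 6 within them. Egfr, the epidermal growth factor receptor, differed from that pattern, at 8.56, 7.94, 9.61, 8.85, 9.58 and 10.24 against 8.15 to 10.13 in controls (-0.03 ± 0.35, adjusted p = 0.983). Mouse 2 lay below the controls and mouse 6 above them, whereas the STZ mice on the plain diet lay between 7.20 and 8.93.

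Genes of fuel use, on which insulin acts most directly, showed another order of mice. Pck1, the enzyme that commits carbon to gluconeogenesis, was 9.91, 10.21 and 10.39 at the lowest, median and highest control and 10.45, 10.12, 11.14, 11.04, 10.21 and 10.22 in mice 1 to 6 (difference 0.34 ± 0.17, adjusted p = 0.426). Mice 3 and 4 were high, mouse 1 lay just above the controls and the other 3 within them. Fasn, fatty acid synthase, was 8.71, 8.87, 7.67, 7.71, 9.42 and 9.01 against 8.55 to 9.44 (-0.43 ± 0.28, adjusted p = 0.556), with mice 3 and 4 below every control. Tat, a tyrosine aminotransferase raised by glucocorticoids and glucagon, had 10.01, 9.75, 11.02, 11.02, 10.24 and 10.17 against 9.95 to 10.22 (0.26, adjusted p = 0.654), again high in mice 3 and 4. The glucocorticoid-response list had per-mouse medians of 0.06, 0.06, 0.58, 0.36, -0.03 and -0.10, and the fatty acid synthesis list 0.01, -0.06, -0.37, -0.35, 0.27 and 0.05. Ciart, a repressor of the circadian clock, was 5.18 and 5.25 in mice 3 and 4 and between 4.04 and 4.20 in the other 4, with controls at 4.04 to 4.17; Tat and Ciart were picked after their values were seen. G6pc, the last enzyme of glucose release, split the mice in yet another way, at 8.62, 8.78, 10.38, 9.87, 10.19 and 10.39 against 9.29 ± 0.55 (SD, n = 6) in controls (difference 0.41 ± 0.30 (SE), limma adjusted p = 0.617).

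Lipid lists had small medians of either sign. PPARα and beta-oxidation genes, which burn fatty acids, had a median of 0.21 with 23 of 26 higher (88.5%) and 0 past the test, and lipid droplet genes a median of 0.21 with 12 of 15 higher and 0 past the test (4 and 3 rose and 0 fell without mice 5 and 6). Fatty acid synthesis had a median of -0.08 with 7 of 23 higher and cholesterol synthesis -0.11 with 8 of 21 higher, 0 past the test in each (0 rose, and 2 and 1 fell, without these mice). Of all genes 45.9% were higher, and the fit without mice 5 and 6 called 1.78% of them higher and 1.52% lower. For the PPARα and beta-oxidation list even mice 5 and 6, at 0.02 and 0.10, were not below the control medians of -0.05 to 0.03, and mouse 6 exceeded them. Acadm, a dehydrogenase of medium-chain fatty acids picked after its values were seen, was 10.52, 10.53, 10.36, 10.52, 10.35 and 10.36 in mice 1 to 6 against 10.14 to 10.29 in controls. Every 0.5% mouse lay above every control, though the difference of 0.20 did not pass (adjusted p = 0.289). Cd36, the fatty acid transporter, was 6.98, 8.30, 7.06, 7.85, 5.63 and 4.91 against 5.23 to 5.80 (1.16 ± 0.37, adjusted p = 0.187), and Cyp4a14, a fatty acid hydroxylase driven by PPARα, was 6.39, 6.60, 6.21, 7.51, 4.08 and 4.54 against 4.09 to 4.82 (1.43 ± 0.62, adjusted p = 0.334). In both, mice 1 to 4 lay above every control. Cd36 differed by 1.92 without mice 5 and 6 (adjusted p = 3.51e-05) and Cyp4a14 by 2.22 (adjusted p = 0.0473). Cholesterol synthesis genes had no common direction among the mice, with per-mouse medians of 0.09, -0.36, -0.61, 0.00, 0.39 and -0.05, and controls between -0.26 and 0.34.

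Other genes named by rule did not pass either. Nnmt, which methylates nicotinamide, was 7.73, 7.15, 7.60, 8.84, 5.45 and 4.92 against 4.85 to 6.12 (difference 1.75 ± 0.53, adjusted p = 0.17; without mice 5 and 6, 2.63 and 0.00132), with mice 1 to 4 above every control and mice 5 and 6 within them. Igfbp1, a binding protein of insulin-like growth factors that insulin represses, was 8.36, 8.07, 8.92, 8.70, 7.43 and 8.35 against 6.67 to 8.23 (0.70 ± 0.33, adjusted p = 0.38). Here mouse 6 lay above the controls with mice 1, 3 and 4. Mt1, a metallothionein, was 7.96, 6.97, 8.40, 8.64, 7.09 and 7.49 against 6.10 to 7.34 (0.80 ± 0.46, adjusted p = 0.504). Cyp7a1, which starts the conversion of cholesterol to bile acids, ranged from 4.63 to 7.72 in controls and from 5.89 to 7.94 in the 0.5% mice (0.76 ± 0.67, adjusted p = 0.697). Igf1 (0.11 ± 0.09, adjusted p = 0.691) and Scd1, a fatty acid desaturase (-0.08 ± 0.18, adjusted p = 0.893), differed by less than 0.2.

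**Figure D4:**
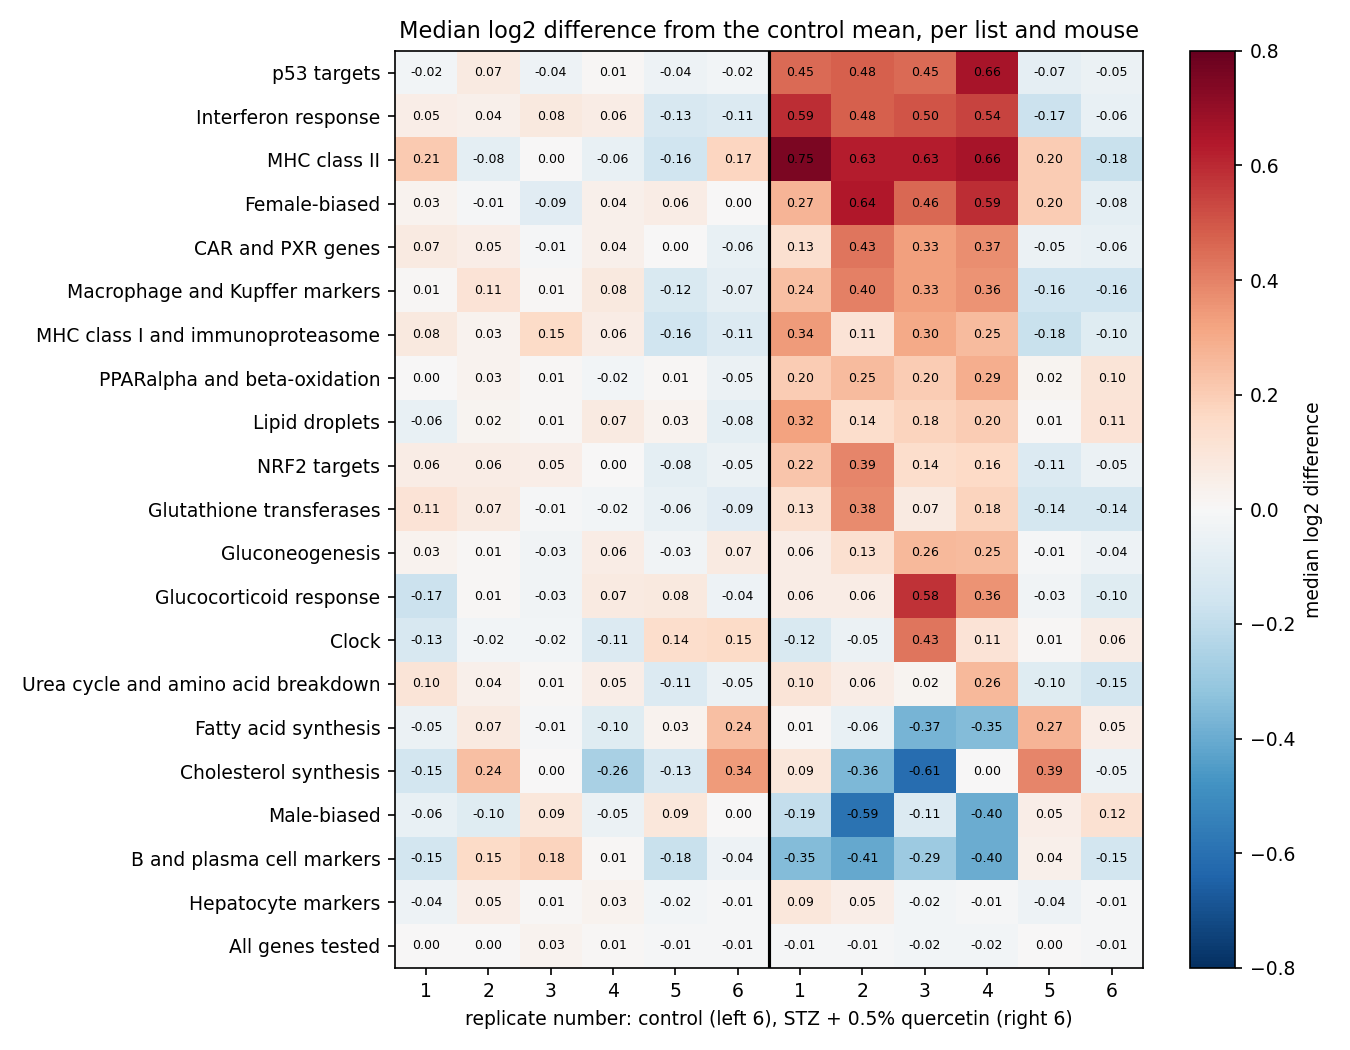
Median log2 difference from the control mean over the tested members of 20 gene lists and over all genes (rows), for each control mouse (left 6 columns) and each 0.5% mouse (right 6 columns); red is higher and blue lower. The p53, interferon and MHC class II lists are red in mice 1 to 4 and near 0 or mixed in mice 5 and 6, while the glucocorticoid, clock and fatty acid synthesis lists single out mouse 3 or mice 3 and 4.

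The spread inside the 0.5% group was measured over the same genes. Over the 488 STZ genes the median SD was 0.272 in the 0.5% group against 0.154 in controls, 0.172 in STZ mice and 0.185 at 0.1% quercetin. Over all genes it was 0.194 against 0.17 in controls. The SD of the 0.5% group was over 2 times that of controls for 45.7% of the STZ genes and for 14.8% of all genes. The fit uses 1 spread for all 4 groups, so the SE of a gene such as Cdkn1a is smaller than the spread of the 0.5% mice alone would give. A separate limma fit had 1 mean for each group and set of numbers, with 3 mice in each. Within mice and controls numbered 1 to 3 that fit called 52 genes higher and 28 lower. Within those numbered 4 to 6, which include mice 5 and 6, it called 0 and 0 (1698 and 878 unadjusted p under 0.05). The difference between the 2 sets of numbers, tested as an interaction, was past the threshold for 0 genes (894 unadjusted p under 0.05, smallest adjusted p 0.571).

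Against STZ mice on the plain diet, the test of the difference itself, 0 of 13114 genes passed in limma (985 unadjusted p under 0.05, smallest adjusted p 0.219). Without mice 5 and 6, 0 passed as well (588 unadjusted p under 0.05, smallest adjusted p 0.419), and without mouse 3 alone 1 gene did: Cep78, a centrosomal protein, at -0.54 (adjusted p = 0.025) against -0.48 (adjusted p = 0.219) with all mice, named after its value was seen. STZ against control called 266 genes higher (2.03%) and 222 lower (1.69%), and 14 of the 17 genes above were among them; the comparisons share their control mice. Trp73, Ccdc47 and Nat9 were the 3 that were not. Ccdc47 differed from control by -0.18 in STZ mice (adjusted p = 0.345) and by -0.53 at 0.5% quercetin, and the direct difference was -0.35 (95% interval -0.54 to -0.16, adjusted p = 0.365). At 0.1% quercetin Ccdc47 also passed against control in limma (-0.36, adjusted p = 0.0193). Nat9 (-0.23, adjusted p = 0.0959) and Trp73 (0.28, adjusted p = 0.123) did not pass there. Nat9 differed by -0.15 in STZ mice (adjusted p = 0.356), with a direct difference of -0.26 (-0.43 to -0.09, adjusted p = 0.523). Trp73 differed by 0.35 in STZ mice (adjusted p = 0.0568), with a direct difference of 0.18 (-0.04 to 0.39, adjusted p = 0.725).

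Against STZ alone, the p53 target Phlda3 differed by -0.90 (-1.54 to -0.26, adjusted p = 0.562) and Cdkn1a by -1.46 (-2.49 to -0.43, adjusted p = 0.562). Without mice 5 and 6 these became -0.15 (-0.44 to 0.13) and -0.30 (-0.81 to 0.22), so most of both differences went with those 2 mice. Egfr, which was lower than control in STZ mice (-1.42, adjusted p = 0.0202), was 1.39 higher at 0.5% quercetin than in STZ mice (0.67 to 2.11, adjusted p = 0.365). Of the genes low in all 6 mice, Mrpl12 differed by -0.10 (-0.28 to 0.08, adjusted p = 0.843) and Pcbp4 by 0.03 (-0.20 to 0.26, adjusted p = 0.973). These intervals are not adjusted for the number of genes, and a p that misses the threshold does not show that the 2 groups were alike.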

How the data were processed

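Liver RNA was measured on Affymetrix 3′ arrays, 1 per mouse. The deposited values are linear intensities per probe set, 45101 of them, 64 of these for array controls; how the authors summarized or scaled them is not given in the sources used here. Of the probe sets, 34958 had 1 gene symbol, 932 several and 9211 none; names came from the platform table, and 34754 matched the GRCm38.p6 gene table by gene ID, with 0 symbols changed. Intensities were quantile normalized over all 24 arrays and turned into log2(value + 16). The brightest probe set with 1 symbol stood for each gene, and genes under the 40th percentile of probe set means were left out, which kept 13114 of 18194.

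limma 3.58.1 (R 4.3.3) fitted 4 group means with 20 residual degrees of freedom, two-sided, with Benjamini-Hochberg adjustment over all genes tested and a threshold of 0.05. Called genes, the 2 largest called genes of each list and 25 further genes were named by rule (41 in all). This comparison, its members and the 43 gene lists were proposed with earlier results of these data known, though each mouse's group came from its title. On simulated data with 200 of 13114 genes changed, this comparison recovered 98% of changes of 1 and 100% of changes of 2 on the log2 scale. The simulation moved all 6 mice of the 0.5% group equally and gave every group the same spread. These rates therefore do not hold for genes on which the group divided, such as Cdkn1a, which did not pass at a difference of 1.67. Nothing in the labels says that mice of a group were handled apart, so p-values measure only the spread between these mice, and the number of arrays limits precision. Other scalings, constants, filters, weights, blocks and left-out mice were tried.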

Additional observations from a re-analysis of the deposited data

Results flagged for a closer look

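Among 84 sets of 6 mice (the named genes and the Gapdh 3′ minus 5′ difference, in each group of the comparison), 2 held a mouse far from the other 5 by Dixon's test, where chance gives about 1 set in 20. Pcbp4 was 6.43 in mouse 2 of the 0.5% group and 6.05 to 6.19 in the other 5. Cd36 was 5.23 in control 5 and 5.64 to 5.80 in the other controls. Mice 5 and 6 of the 0.5% group lay apart as a pair in many genes, which this test of a single far value does not detect.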

How the results depend on the processing

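The 7 genes higher and 10 lower became 2 and 6 on the values as deposited, 37 and 649 with median scaling, 16 and 14 with trimmed mean scaling, 3 and 3 with a constant of 1, 1 and 8 with a constant of 64, 0 and 3 with no filter on dim genes, 11 and 9 with the mean of a gene's probe sets, 0 and 0 with the 12 arrays alone, 58 and 48 with array weights, 0 and 0 with the Gapdh difference as a term, and 234 and 199 without mice 5 and 6. Genes that were higher made up 41.2% of the calls, and 0% to 55% over these alternatives. Leaving out 1 mouse gave 0 to 88 higher and 1 to 62 lower, and 0 to 1 genes against STZ alone. With the replicate block 3 were higher and 3 lower, 6 of the 17 kept; same-numbered mice deviated together with correlations of -0.10 to 0.13, over 0.1 in 1 of 6, and 1 of 6 correlated best with its own number, so the numbers were not taken to pair mice. The Gapdh difference of -0.17 was -0.27 without mice 5 and 6 (exact permutation p = 0.0286), and -0.22 to -0.11 with 1 mouse left out.

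Of the values of named genes under all alternatives, 790 kept direction and side of the threshold, 222 lost the call, 27 gained it and 26 changed sign, all 26 in genes that did not pass. With the Gapdh term Nqo1 was -0.05, Egfr 0.33, Scd1 0.03 and Cyp1a1 0.01; Igf1 was -0.10 and Hmox1 -0.04 with median scaling; Hmox1 was -0.02 with a constant of 1; Cyp1a1 was 0.01 as deposited and 0.04 with trimmed means. With 1 mouse left out the values lay between -0.25 and 0.21 for Egfr, and those of changed sign between 0.00 and 0.04 for Cyp1a1, and -0.10 and -0.02 for Hmox1. Of 1116 list medians, 1089 stayed within 1 SD of the main value and 27 moved. That SD was taken over the 6 mice of the 0.5% group, so it is wide for lists on which they divided. Per-mouse medians of the p53 list, for example, ran from -0.07 to 0.66 there and from -0.04 to 0.07 in controls. Staying within that SD is thus a loose criterion. Genes near the floor, such as Trp73 and Ifi27l2b, have compressed differences.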
